A study of Rattus norvegicus with 10 samples.

Results

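The miRNAs miR-448-3p, miR-448-5p and miR-1298 are 3 of the 765 mature miRNAs listed for rat hippocampus in this small RNA sequencing study, and they were chosen by name as miRNAs hosted by Htr2c. All 3 were found in the table. Htr2c encodes the serotonin 2C receptor, and the choice also rested on the way these miRNAs vary together across the 10 libraries, so that pattern is given as a description. Hippocampal RNA of wistar rats, 10 weeks of age, was sequenced. Of the libraries, 5 carry the treatment label sham-operated and 5 the label 2-VO operation, the occlusion of both common carotid arteries, which lowers the blood supply of the brain and serves as a model of chronic cerebral hypoperfusion. The protocol text names the occlusion for all samples, so the groups rest on the treatment label. The labels do not give the time after surgery, nor whether each library came from 1 animal, and p-values therefore reflect only library-to-library spread, which may be technical. Replicates are numbered as in the sample titles, 1 to 5 for sham and 3, 5, 6, 7 and 8 for 2-VO.

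A miRNA is cut from a hairpin precursor, and either arm of the hairpin (5p or 3p) can be loaded into Argonaute, where its seed pairs with target mRNAs. Precursors that lie in an intron are commonly transcribed with the host gene. Htr2c RNA is most abundant in the epithelium of the choroid plexus, the tissue that secretes cerebrospinal fluid and lies in the ventricle beside the hippocampus, and the receptor is also made by some hippocampal neurons. In RNA from whole tissue, a change in the number of such cells and a change in RNA per cell cannot be told apart.

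In the RefSeq tables of the build GRCr8, 5 miRNA hairpins lay inside the span of Htr2c on chromosome X, all on the strand of the gene (+), in the order Mir3552, Mir764, Mir1912, Mir1298 and Mir448. The mature sequences of the members and of miR-1912-3p and miR-3552, which had the highest r with miR-448-3p among the other miRNAs of this gene over the 10 libraries, are shown because the shared pattern described below joins miRNAs with different seeds. Bases 2 to 8, the seed, are in capitals.

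miR-448-3p: uUGCAUAUguaggauguccca

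miR-448-5p: aACAUCCUgcauagugcugcca

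miR-1298: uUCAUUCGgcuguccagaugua

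miR-1912-3p: cACAGAACaugcagugaga

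miR-3552: aGGCUGCAggcccacuucccu

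The 5 seeds differed, and 0 of them was found in another mature rat miRNA of the RefSeq table. The Mir448 and Mir1298 hairpins, with the listed mature miRNAs in capitals, show where the members sit: miR-1298 on the 5p side of its precursor, and both arms of miR-448.

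Mir448: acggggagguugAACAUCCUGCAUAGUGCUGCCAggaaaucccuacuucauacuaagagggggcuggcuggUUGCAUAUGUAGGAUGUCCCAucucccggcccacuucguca

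Mir1298: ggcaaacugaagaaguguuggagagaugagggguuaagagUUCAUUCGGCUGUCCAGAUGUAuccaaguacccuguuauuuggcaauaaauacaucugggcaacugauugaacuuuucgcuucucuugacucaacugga

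Values are RPM, the usual scaling of a miRNA's reads to a fixed library total, here by a divisor of 13032805 to 13850400 reads. The listed values summed to 60.3% to 78% of that divisor. Some rows had the same r with each member, such as miR-378a-5p and miR-3557-3p, or miR-210-3p and miR-3574. The same reads may thus be listed under several names, and the share of distinct reads may be lower. The smallest value above 0 in every library was assumed to be 10 reads, and the divisor was set from it. This made all values whole reads, but a multiple of 10 would do so too. Read counts and their intervals rest on this assumption. A value of 0 is taken to mean fewer than 10 reads, a limit of 0.722 to 0.767 RPM. Of cell type markers, 6 neuronal miRNAs (miR-9a-5p, miR-124-3p, miR-128-3p, miR-132-3p, miR-138-5p and miR-218a-5p) summed to 171311 to 222620 RPM, which any brain region could show and which does not test the hippocampal label.

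miR-1298 was by far the most abundant member, with a mean of 344 RPM over the 10 libraries, 119th of the 765 miRNAs and between miR-329-5p (345 RPM) and miR-219b (318 RPM). In the sham libraries it stood at 210.0, 405, 254, 325 and 993 RPM in replicates 1 to 5. In the 2-VO libraries it stood at 208, 237, 207, 222 and 381 RPM in replicates 3, 5, 6, 7 and 8. Sham replicate 5 lay far above every other library, sham replicate 2 and 2-VO replicate 8 came next, and the groups overlapped. The highest library held 4.80 times the level of the lowest, on 2719 to 12936 reads per library.

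miR-448-3p, the main arm of its hairpin and a miRNA studied as a brake on fat cell differentiation, had a mean of 21.4 RPM (289th of 765, between miR-376c-3p and miR-30b-3p). Its sham values were 9.67, 25.9, 18.0, 20.3 and 51.4 RPM in replicates 1 to 5. Its 2-VO values were 9.99, 16.3, 17.5, 18.6 and 26.7 RPM in replicates 3, 5, 6, 7 and 8. Sham replicate 5 was again the highest, sham replicate 1 and 2-VO replicate 3 were the lowest, and the groups overlapped. The 5.31-fold range exceeded counting error, since the lowest value rested on 134 reads (exact Poisson 95% interval 8.11 to 11.5 RPM) and the highest on 670 reads (47.6 to 55.5 RPM). These intervals cover counting error only.

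miR-448-5p, the minor arm, had a mean of 1.42 RPM (461st of 765). It was listed at 0 in sham replicate 1 and stood at 2.15, 1.14, 1.48 and 2.15 RPM in sham replicates 2 to 5. In 2-VO replicates 3, 5, 6, 7 and 8 it stood at 0.948, 1.76, 0.988, 1.95 and 1.66 RPM. At 13 to 29 reads in the 9 libraries above 0, its values are coarse. The 2-VO values lay inside the sham range only through the 0 of sham replicate 1, which stands for fewer than 10 reads. 2-VO replicates 3 and 6 lay below sham replicates 2 to 5. The 5p arm made up 4.01% to 9.75% of the reads of both arms in those 9 libraries. In sham replicate 1, with 134 reads of the 3p arm, at most 9 reads of the 5p arm could go unlisted, a share of up to 6.29%, so this 0 does not set the library apart.

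**Figure D1:**
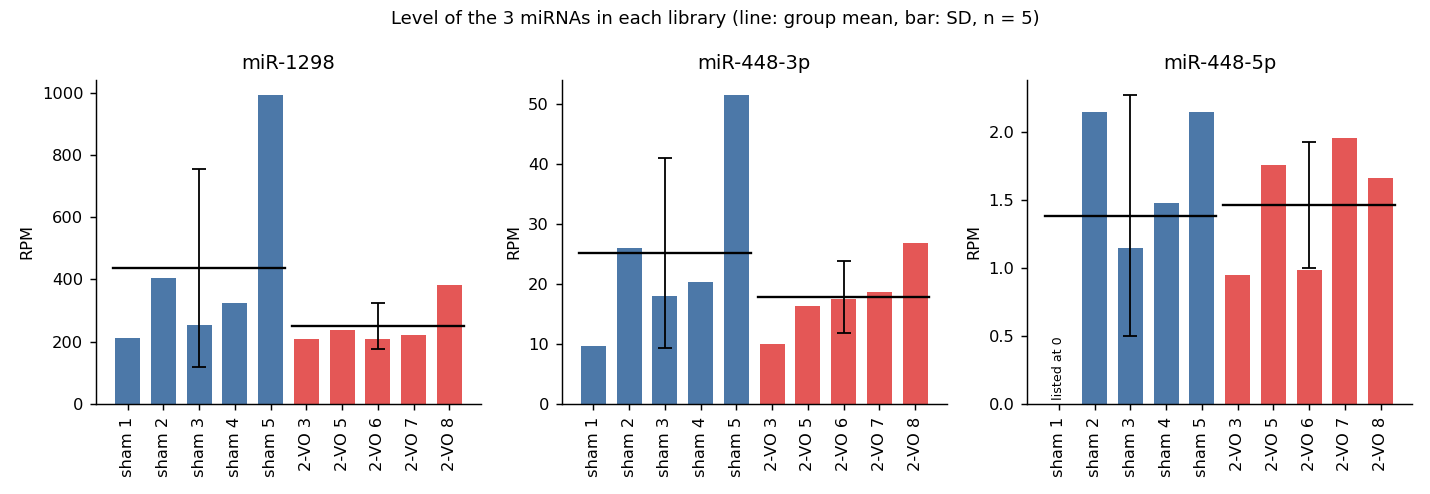
Level in RPM (vertical axes, each starting at 0) of miR-1298, miR-448-3p and miR-448-5p in each of the 10 libraries, with sham in blue and 2-VO in red. Horizontal lines are group means and error bars are SD (n = 5). Sham replicate 5 stands above the other libraries for miR-1298 (993 RPM) and miR-448-3p (51.4 RPM), and the groups overlap in each panel.

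miR-448-3p and miR-1298 were among the most variable miRNAs within the groups. The within-group SD on the log2(RPM + 1) scale was 0.68 for miR-448-3p and 0.67 for miR-1298. They ranked 8th and 10th from the top among the 474 miRNAs tested, and miR-448-5p ranked 17th (0.52). The SD of miR-448-5p includes its 0 in sham replicate 1, which stands for fewer than 10 reads, so its rank may overstate its spread. The median over all tested miRNAs was 0.21. The SDs of miR-1298 and miR-448-3p include sham replicate 5, the highest library of both. It held 993 RPM of miR-1298, against 210.0 to 405 RPM in the other sham libraries. SDs and ranks without that library were not computed, so these ranks may rest largely on it. Of the other miRNAs of this gene, miR-1912-3p ranked 23rd (SD 0.50), miR-764-5p 29th (0.45) and miR-3552 72nd (0.32). Each rested on 10 to 59 reads where listed above 0, and the SD of miR-764-5p includes its 0 in 2-VO replicate 3. The choroid plexus miRNA miR-204-5p ranked 118th (0.27).

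The comparison of 2-VO with sham asks whether carotid occlusion was accompanied by a different level of these miRNAs. Of the 3 members 0 passed, which is also the background, since 0 of the 474 miRNAs tested passed in limma with Benjamini-Hochberg adjustment (0% called, smallest adjusted p = 0.44). The count was also 0 with voom on whole reads. An exact permutation test per miRNA gave 0 as well, but its smallest possible p is 0.0079, too large to pass the adjustment unless many more miRNAs had groups that do not overlap, so this 0 is set by the design. At an unadjusted p under 0.05, limma gave 24 miRNAs (5.06%), voom 25 and the permutation test 32, and none of the 3 members was among them in limma. The groups overlapped for each of the members, as for all but 0.633% of the tested miRNAs.

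For miR-1298 the sham mean was 437 ± 319 RPM and the 2-VO mean 251 ± 73.8 RPM (SD, n = 5). The limma estimate on the log2 scale was -0.60 ± 0.32 (SE, adjusted p = 0.76), with a 95% interval of -1.30 to 0.093. Without sham replicate 5 the log2 fold change of miR-1298 was -0.25. For miR-448-3p the sham mean was 25.04 ± 15.8 RPM and the 2-VO mean 17.8 ± 6.0 RPM (SD, n = 5). The limma estimate was -0.33 ± 0.33 (SE, adjusted p = 0.90), with a 95% interval of -1.05 to 0.38. Its value depended on single libraries, at -0.033 without sham replicate 5, -0.16 without 2-VO replicate 3 and -0.61 without sham replicate 1. The intervals of both miRNAs hold 0 as well as a drop of more than 1 log2 unit, so these libraries settle neither.

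For miR-448-5p the means were 1.38 ± 0.888 and 1.46 ± 0.463 RPM (SD, n = 5), and the limma estimate was 0.13 ± 0.27 (SE, adjusted p = 0.96) with a 95% interval of -0.45 to 0.72. The value turned to -0.15 without sham replicate 1, where the arm was listed at 0, and voom on whole reads, which keeps that 0 as 0 reads, gave 0.88 (adjusted p = 0.90). Of the members, 2 lay lower and 1 higher in 2-VO, beside 62.2% of all tested miRNAs lower. Their median log2 fold change was -0.33, against -0.051 over all tested miRNAs, and it was -0.033 without sham replicate 5.

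**Figure D2:**
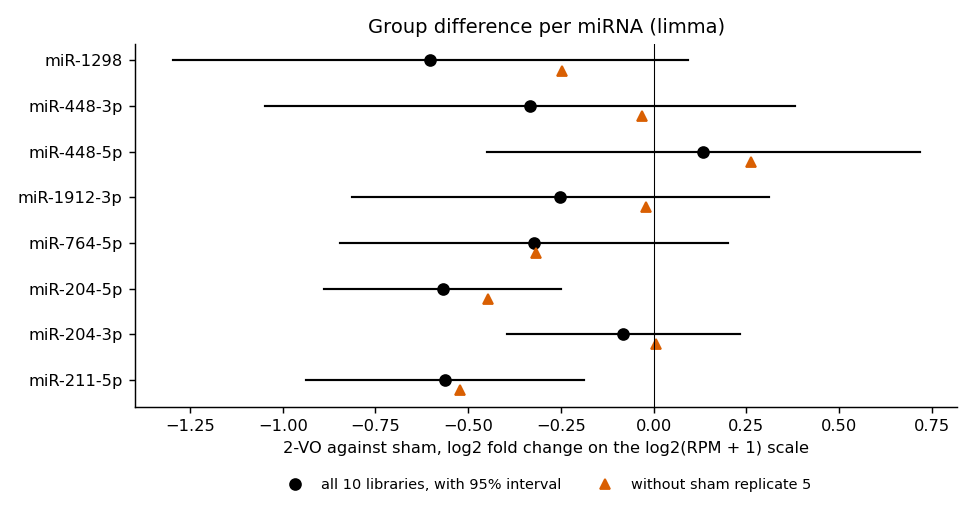
Log2 fold change of 2-VO against sham on the log2(RPM + 1) scale (horizontal axis) for the members, for miR-1912-3p and miR-764-5p of the same gene, and for miR-204-5p, miR-204-3p and miR-211-5p. Black points with lines are limma estimates with 95% intervals, and orange triangles are the estimates without sham replicate 5. The intervals of the Htr2c-hosted miRNAs shown include 0, and the triangle of miR-448-3p sits at -0.033.

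The arms of miR-448 were compared as log2(RPM + 1) of 5p minus that of 3p, over 132 hairpins with both arms kept. The added 1 RPM is close to the level of miR-448-5p itself, so these values understate the gap between the arms, and the read shares above are the measure of the arm balance. The comparison includes sham replicate 1, with its 0 for the 5p arm. Its sham mean was -3.36 ± 0.41 and its 2-VO mean -2.89 ± 0.38 (SD, n = 5). The 2-VO mean was thus higher by 0.47 ± 0.20 (SE, limma unadjusted p = 0.035, adjusted p = 0.38). With 0.5 or 5 RPM added in place of 1, the difference was 0.57 or 0.32. It did not pass, and 0 of the 132 hairpins did in limma (0% called), with 15 at an unadjusted p under 0.05 (11.4%). Without sham replicate 5, which had the lowest 5p share (4.01%) of the 9 libraries with the arm above 0, the difference was 0.29.

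Across the libraries the members moved together, as the choice of these miRNAs implies. Pearson's r of log2(RPM + 1) between miR-448-3p and miR-1298 was 0.91 over the 10 libraries (Spearman's rho 0.85). It was 0.92 for deviations from the group means and 0.81 without sham replicate 5. Without the pair of libraries farthest from the median of miR-448-3p (sham replicates 5 and 1) it was 0.82 over 8 libraries. The arms miR-448-3p and miR-448-5p had an r of 0.74 (rho 0.76), and miR-448-5p and miR-1298 an r of 0.54 (rho 0.75). The libraries share a tissue, a kit and a divisor over all miRNAs, and the median r of miR-448-3p with the 473 other tested miRNAs was 0.31. An r of at least 0.6 was found for 72 of these (15.2%), so a high r is not rare here. Some of these may be the same reads under another name, such as let-7a-5p and miR-3596a (both 0.74). Counts, shares and ranks over the tested miRNAs are therefore not over distinct miRNAs only.

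The other miRNAs of the gene were then read beside them. miR-1912-3p stood at 0.722, 2.30, 0.991, 2.37 and 4.53 RPM in sham replicates 1 to 5. Its values were 1.24, 1.60, 1.22, 1.2 and 2.10 RPM in 2-VO replicates 3, 5, 6, 7 and 8. Sham replicate 5 was the highest and sham replicate 1 the lowest, as for miR-448-3p, and the values rest on 10 to 59 reads. Among the 473 other tested miRNAs, miR-1912-3p had the highest r with miR-1298 (0.93, rho 0.72, and 0.84 without sham replicate 5) and the second highest with miR-448-3p (0.89, rho 0.73, and 0.75 without sham replicate 5).

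The third place beside miR-448-3p was held by miR-3552, with an r of 0.88. That its hairpin lies in Htr2c was found from its position after its values were seen. It stood at 0.939, 1.41, 1.37, 1.48 and 2.99 RPM in the sham libraries and at 0.875, 1.83, 1.60, 1.58 and 1.59 RPM in the 2-VO libraries. Its likeness rested more on the extreme libraries, with a rho of 0.50, an r of 0.74 without sham replicate 5, and an r with miR-1298 that went from 0.77 to 0.32 without that library.

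miR-764-5p had a different highest library. It stood at 0.866, 2.37, 1.52, 1.11 and 1.46 RPM in the sham libraries and at 0, 1.45, 1.14, 0.977 and 1.59 RPM in the 2-VO libraries, so sham replicate 2, not 5, was the highest. Its r with miR-448-3p was 0.64 (rho 0.68), below those of miR-1912-3p and miR-3552, but 0.79 without sham replicate 5, above their 0.75 and 0.74. Its r with miR-1298 was 0.46 (rho 0.73), or 0.65 without that library. Which of these miRNAs is most like the members thus depends on sham replicate 5. The remaining arms of these precursors, miR-764-3p and miR-1912-5p, were listed at 0 in every library. None of miR-1912-3p, miR-764-5p and miR-3552 differed between the groups beyond the spread, with log2 fold changes of -0.25, -0.32 and -0.051 (limma adjusted p = 0.92, 0.82 and 0.96).

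**Figure D3:**
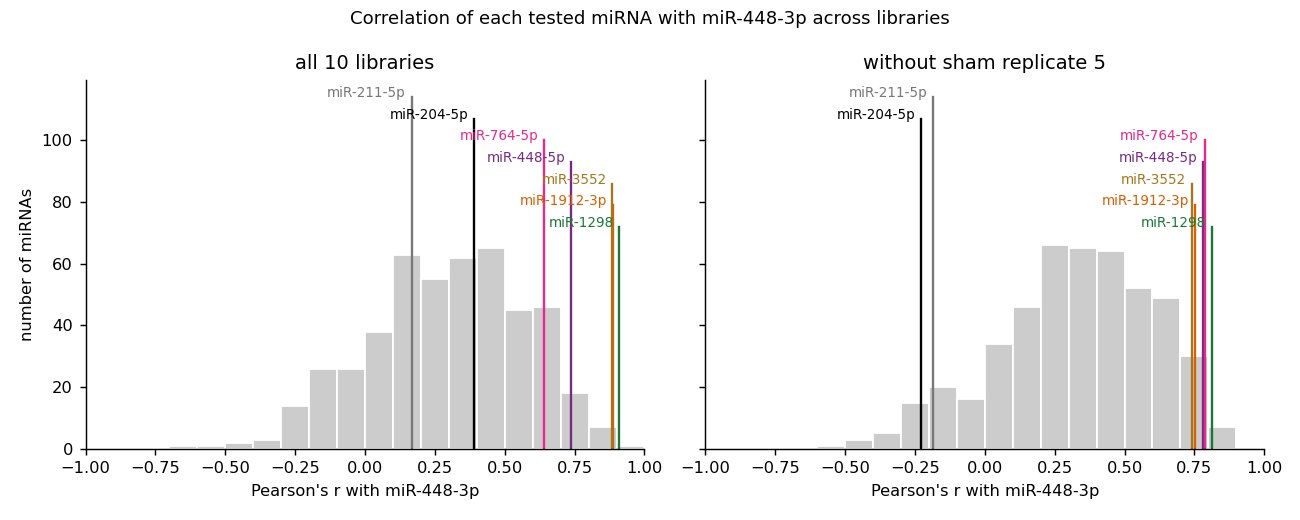
Number of miRNAs (vertical axis) by Pearson's r with miR-448-3p on log2(RPM + 1) (horizontal axis), over all 10 libraries at left and without sham replicate 5 at right. Coloured lines mark the miRNAs of Htr2c, which lie between 0.64 and 0.91 at left. The black and grey lines mark miR-204-5p (0.39) and miR-211-5p (0.17), which lie below 0 at right. miR-204-3p, the other tested choroid plexus miRNA, is not marked. Its r was 0.74 over all 10 libraries, inside the range of the Htr2c miRNAs, and 0.49 without sham replicate 5.

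By the rule of highest r, the other miRNAs most like miR-448-3p were miR-335 (0.87), miR-152-3p (0.86) and miR-181d-5p (0.86). Without sham replicate 5 these were 0.76, 0.76 and 0.85. For miR-1298 they were miR-298-5p (0.81), miR-140-5p (0.80), miR-872-5p (0.79) and miR-152-3p (0.78). Without sham replicate 5, miR-298-5p fell to 0.49 and miR-140-5p to 0.28, while miR-872-5p and miR-152-3p stood at 0.65 and 0.62. Each of these miRNAs had its highest level in sham replicate 5. Without that library miR-1298 ranked 5th and miR-1912-3p 22nd of the 473 beside miR-448-3p, so the lead of the miRNAs of this gene over all others rests partly on 1 library.

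Whether the members followed the choroid plexus was read from miR-204 and miR-211, paralogs that are abundant in that epithelium and in pigment epithelium. Of the 4 miRNAs of this list other than the members, miR-211-3p was at 0 throughout. Their sum ran from 531 to 904 RPM in sham and from 373 to 556 RPM in 2-VO libraries, highest in sham replicate 5. miR-204-5p stood at 563, 627, 624, 523 and 893 RPM in sham replicates 1 to 5 and at 548, 393, 469, 367 and 385 RPM in 2-VO replicates 3, 5, 6, 7 and 8. It shared its highest library, sham replicate 5, with miR-448-3p and miR-1298. In the other libraries the order differed: 2-VO replicate 8, second highest for miR-448-3p, was second lowest for miR-204-5p, and sham replicate 1, lowest for miR-448-3p, was 4th highest.

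Accordingly the r of miR-204-5p was 0.39 with miR-448-3p and 0.63 with miR-1298, and these went to -0.23 and 0.10 without sham replicate 5. For miR-211-5p, at 1.59 to 4.76 RPM, the r with miR-448-3p was 0.17, or -0.19 without that library. miR-204-3p, the minor arm at 3.47 to 6.22 RPM, had an r of 0.74 with miR-448-3p, or 0.49 without it. Both 5p miRNAs lay lower in 2-VO, with log2 fold changes of -0.57 (miR-204-5p) and -0.56 (miR-211-5p). Neither passed (limma adjusted p = 0.44 and 0.64), and both stayed lower without sham replicate 5 (-0.45 and -0.52). Of the 3 tested miRNAs of this list, 2 had a limma unadjusted p under 0.05, beside 5.06% of all tested miRNAs and none of the members.

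**Figure D4:**
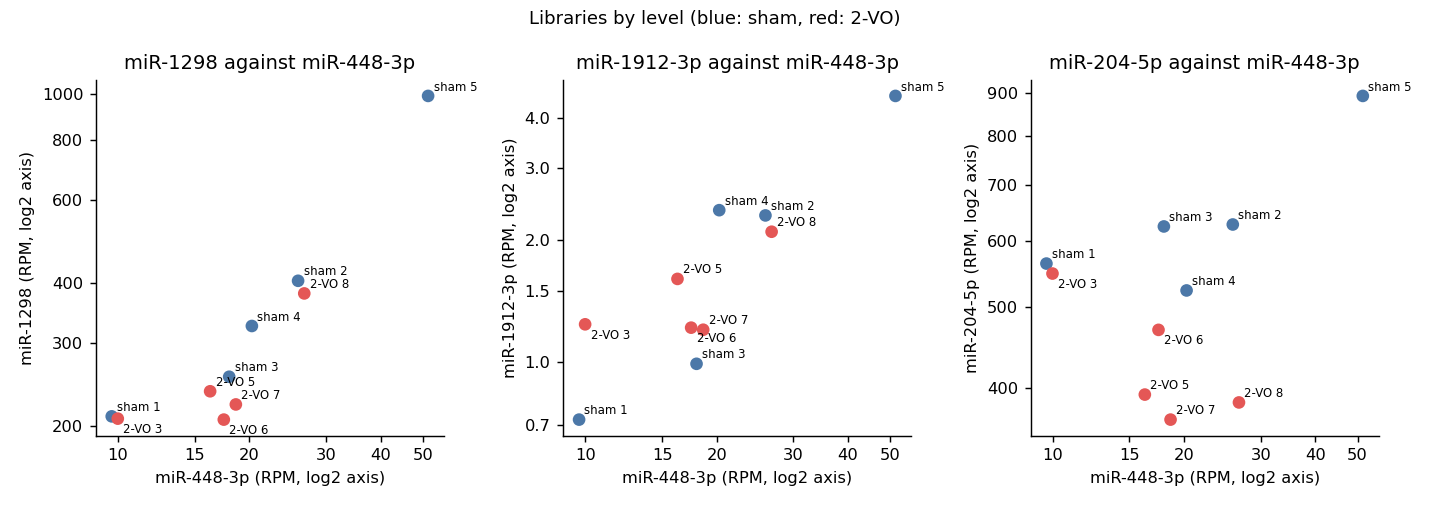
Level of miR-1298, miR-1912-3p and miR-204-5p (vertical axes) against miR-448-3p (horizontal axes) in RPM on log2 axes, 1 point per library, with sham in blue and 2-VO in red. The libraries rise together for miR-1298 (r = 0.91) and miR-1912-3p (r = 0.89), while miR-204-5p is high with miR-448-3p in sham replicate 5 and shows no shared order in the rest.

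**Figure D5:**
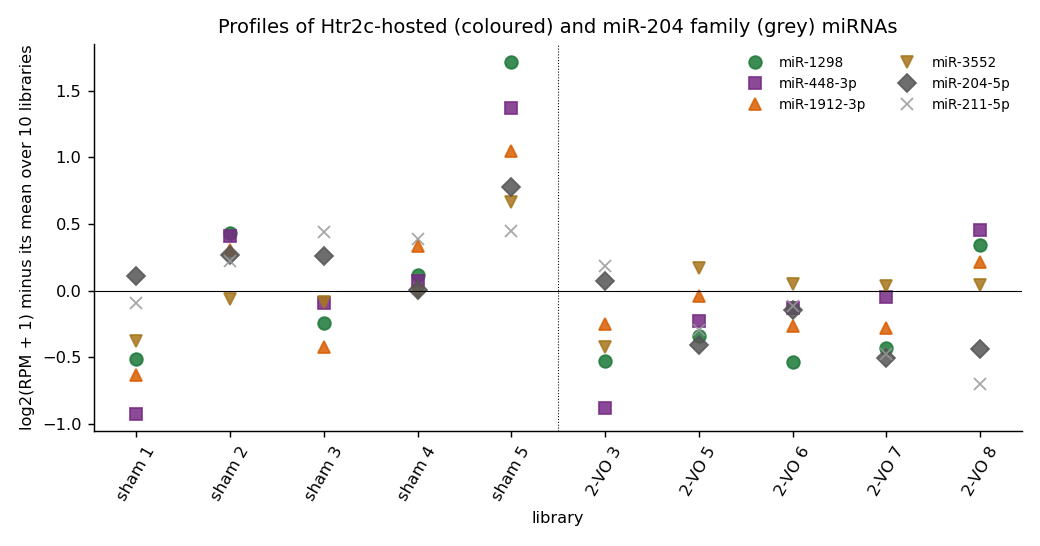
Log2(RPM + 1) of 4 Htr2c-hosted miRNAs (coloured) and of miR-204-5p and miR-211-5p (grey), each minus its mean over the 10 libraries (vertical axis), by library (horizontal axis). In sham replicate 5 all 6 are above 0, and in 2-VO replicate 8 the Htr2c-hosted miRNAs are above 0 while miR-204-5p and miR-211-5p are below.

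Ratios within a library were taken as differences of log2(RPM + 1) and compared between the groups for 3 pairs with exact two-sided permutation tests over the 252 splits (smallest possible p = 0.0079). miR-448-3p stood at 4.61% to 8.46% of the RPM of miR-1298, a far narrower range than that of either miRNA. That range restates their shared pattern, on which the choice of these miRNAs partly rested, and is not a separate result. Its log2 ratio to miR-1298 averaged -4.03 ± 0.24 for sham and -3.76 ± 0.31 for 2-VO (SD, n = 5), higher by 0.27 (exact permutation p = 0.16, adjusted over the 3 ratios 0.48). Against miR-204-5p, miR-448-3p ran from 1.72% in sham replicate 1 to 6.95% in 2-VO replicate 8. The log2 ratio of miR-448-3p to miR-204-5p averaged -4.81 ± 0.61 for sham and -4.57 ± 0.69 for 2-VO (exact permutation p = 0.58, adjusted 0.87). The log2 ratio of miR-1298 to miR-204-5p averaged -0.77 ± 0.63 and -0.81 ± 0.53 (exact permutation p = 0.88, adjusted 0.88). None of the 3 ratios differed between the groups by more than the spread of the libraries.

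Markers of neighbouring cells moved with the members in part. The ciliated ependyma list (miR-34b, miR-34c and miR-449 arms) had 5 of 6 listed miRNAs above 0, with miR-449c-5p at 0, and summed to 308 to 1111 RPM in sham and 487 to 729 RPM in 2-VO libraries. Its lowest and highest sums fell in sham replicates 1 and 5, the lowest and highest sham libraries of miR-448-3p. The r with miR-448-3p was 0.70 for miR-34c-5p, 0.65 for miR-34b-3p and 0.64 for miR-34c-3p. These stood at 0.43, 0.39 and 0.29 without sham replicate 5. Without sham replicates 5 and 1, the pair farthest from the median of miR-448-3p, they were -0.20, -0.018 and -0.19 over 8 libraries. For miR-34b-5p the r was 0.60, or 0.20 without sham replicate 5, and for miR-449a-5p it was -0.096, or 0.24. Without sham replicates 5 and 1 these were -0.45 and 0.48. The list of other epithelium (miR-200 family, miR-141, miR-429 and the miR-183, miR-182 and miR-96 cluster) summed to 10.3 to 23.8 RPM in sham and 12.0 to 82.8 RPM in 2-VO libraries, with miR-141-3p at 0. Within sham it was lowest in replicate 1 and highest in replicate 5, as miR-448-3p and miR-1298 were, but it peaked in 2-VO replicate 3, where both were low. Its 5 tested miRNAs had a median r with miR-448-3p of -0.054. In limma with adjustment over all tested miRNAs, 0 miRNAs of these lists passed. The median log2 fold change was -0.56 for the choroid plexus list (3 of 3 tested lower), 0.55 for other epithelium (5 of 5 higher) and -0.096 for ciliated ependyma (4 of 5 lower, with a median of 0.088 without sham replicate 5). For red blood cell miRNAs it was 0.17 (2 of 3 higher). For the neuronal list it was -0.014 (4 of 6 lower), which turned to 0.044 when libraries were scaled to their listed miRNA reads. The red blood cell miRNAs miR-486, miR-144-3p and miR-451-5p had an r with miR-448-3p of 0.64, 0.34 and 0.34. Without sham replicate 5 these were 0.81, 0.50 and 0.47. The part of these cells in the levels of the members was not tested.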

How the data were processed

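The authors' deposited table gives RPM per mature miRNA and library. Named in the submitters' processing notes are bcl2fastq, BWA and the build rn6, while the miRNA annotation and the handling of multiply matching reads are not stated in any label. Per the labels' protocols, Trizol RNA was made into libraries with a NEBNext small RNA kit. All 4962 values above 0 were whole reads (within 0.01 reads) at 1 divisor per library, with the smallest value set to 10 reads.

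From these values log2(RPM + 1) was computed, and 474 miRNAs whose mean reached 1 RPM were tested with limma 3.58.1 in R 4.3.3 (mean-variance trend, two-sided, Benjamini-Hochberg over all tested, threshold 0.05). All 3 members passed this filter. Fold changes on this scale understate the change of low miRNAs. The fit and the likeness ranking were tested on simulated data. Sequences are from RefSeq (GRCr8, 690 of 765 names matched); no coordinates are given, as the builds differ. Named miRNAs are the members, other miRNAs of Htr2c, marker miRNAs, and the 5 with the highest r with miR-448-3p and with miR-1298, members left out. The members, lists and tests were chosen with earlier results of these data known, and miR-3552 and 1 setting were added after the data were seen. Other settings changed the pseudocount, filter, scaling, test, block or left out each library.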

Additional observations from a re-analysis of the deposited data

Results flagged for a closer look

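Of 48 groups of 5 values checked, 6 held a library whose gap to its nearest neighbour exceeded 0.71 of the group's range. Chance gives about 1 in 20 for independent, normally distributed values. The miRNAs checked share the same libraries, and some were picked for their r with the members over them. The count of 6 is therefore a description and not a test. miR-1298 was highest in sham replicate 5 (993 RPM, others 210.0 to 405) and, in the 2-VO group, in replicate 8 (381 RPM, others 207 to 237). miR-3552 was highest in sham replicate 5 (2.99 RPM, others 0.939 to 1.48) and lowest in 2-VO replicate 3 (0.875 RPM, others 1.58 to 1.83). Sham replicate 5 also had the highest miR-204-5p (893 RPM, others 523 to 627) and miR-140-5p (247 RPM, others 165 to 181).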

How the results depend on the processing

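No member passed in any setting other than the replicate block, and the log2 fold changes of miR-1298 and miR-448-3p stayed below 0 in all settings run. Over the fits that leave out 1 library they ran from -0.81 to -0.25 and from -0.61 to -0.033. That of miR-448-5p ran from -0.15 to 0.26, and was -0.010 with its 0 set to 9 reads, a setting chosen after seeing the data; voom on whole reads gave 0.88, and a filter at 5 RPM removes it. The miR-448 arm difference ran from 0.29 to 0.59, with 3 of 132 hairpins passing without sham replicate 5, 1 without 2-VO replicate 3 and 0 otherwise. Without 1 library the differences in ratio ran from 0.20 to 0.39 (miR-448-3p to miR-1298), 0.0056 to 0.50 (miR-448-3p to miR-204-5p) and -0.23 to 0.20 (miR-1298 to miR-204-5p). The count at an unadjusted p under 0.05 ran from 12 (without sham replicate 2) and 14 (sham 3) to 37 (sham 5) and 42 (2-VO replicate 6 or 8), and was 43 with array weights and 37 with TMM factors.

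The title numbers 3 and 5 occur in both groups, and no label says that they pair the libraries. Deviations from the group means had an r of -0.058 and -0.18 within these pairs (over 474 miRNAs), inside the -0.38 to 0.45 of all 25 cross pairs. With so few pairs and so wide a range, these values cannot show whether the libraries are paired. With the number as a replicate block, the comparison rests on the 4 libraries numbered 3 and 5. The limma log2 fold changes were then -1.20 for miR-448-3p (adjusted p = 0.0073), -1.18 for miR-1298 (0.012) and -0.16 for miR-448-5p, with 8 miRNAs passing. So few libraries give almost no spread of their own, so these p-values rest mostly on the variance limma borrows from all tested miRNAs. The pair numbered 5 holds sham replicate 5, at 51.4 RPM of miR-448-3p against 16.3 RPM in 2-VO replicate 5. Averaged over both pairs, the log2 ratio of miR-448-3p to miR-1298 differed by -0.019 and that to miR-204-5p by -0.51. The first average joins opposite shifts. From sham to 2-VO the log2 ratio to miR-1298 went from -3.75 to -4.247 for number 3 and from -4.245 to -3.786 for number 5. The log2 ratio to miR-204-5p was lower in 2-VO in both pairs.

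The correlations among the members kept their sign, over 0.81 to 0.93 (miR-448-3p and miR-1298), 0.71 to 0.78 (both arms of miR-448) and 0.51 to 0.64 (miR-448-5p and miR-1298) without 1 library. The last was 0.75 as Spearman's rho and 0.68 on deviations from the group means. Against miR-204-5p the r ran from -0.23 to 0.54 for miR-448-3p and from 0.10 to 0.77 for miR-1298, and was -0.10 and -0.23 without the 2 libraries farthest from the median. Why these values moved was not tested. Correlations within groups of 5 libraries and a count model were not run, the latter because counts under 10 are not listed. Depth limits miR-448-5p, miR-764-5p, miR-1912-3p and miR-3552.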

Other observations

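Some miRNAs, singled out after their values were seen, stood near or opposite the members: miR-31a-5p, outside the lists, and miR-132-3p, from the neuronal list. miR-31a-5p had the highest r with the minor arm miR-448-5p (0.84, rho 0.87, and 0.83 without sham replicate 5), and an r of 0.81 with miR-448-3p. Its sham mean was 20.9 ± 4.28 RPM and its 2-VO mean 19.9 ± 3.38 RPM (SD, n = 5). The activity-regulated miR-132-3p had the lowest r of all tested miRNAs with miR-448-3p (-0.63) and the second lowest with miR-1298 (-0.64). Its lowest level, 528 RPM, fell in sham replicate 5, and without that library these values were -0.21 and 0.0046.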
